A study of Homo sapiens with 6 samples.

Results

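Complement component C3 and 8 genes that activate or restrain the complement system were measured in MCF10A, a human breast epithelial cell line that does not form tumours, in the presence and absence of C/EBPbeta-2. The 9 genes were C3, CFB, CFI, C1R, C1S, SERPING1, CD46, CD55 and CD59. Their members on the array were the 20 probe sets (groups of probes that report 1 value each) that the probe annotation ties to 1 of these symbols and no other, out of 54613 probe sets and 19775 genes in all. The gene CEBPB encodes several forms of 1 transcription factor, and C/EBPbeta-2 is one of them. The series held 6 arrays, of which 3 carry C/EBPbeta-2 in their label and 3, the control here, name only the cell line. Both groups grew in the same medium, which contained epidermal growth factor, hydrocortisone, insulin, cholera toxin and horse serum, and neither received a treatment. The samples of a group are named biological replicates without a word on what separated them, so each p-value reflects only how far these samples spread, which may be technical. How C/EBPbeta-2 entered the cells, what promoter drove it and whether the cells were 1 clone are not given in the sources used here.

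Complement is a cascade of plasma and cell-surface proteins that marks and lyses targets. The proteases C1R and C1S start the classical pathway, factor B (CFB) forms the convertase of the alternative pathway, and both routes meet at C3, whose fragment C3b attaches to surfaces. Host cells hold the cascade back with factor I (CFI), which cleaves C3b, with the C1 inhibitor SERPING1, and with the surface proteins CD46, CD55 and CD59. The liver makes most plasma complement, but epithelial cells also express C3 and factor B, and interleukin-1, interleukin-6 and interferons are known to induce complement genes.

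C3 was the only one of the 9 genes that was called: it fell 12.7-fold on the arrays labelled C/EBPbeta-2. The other 8 were not called with 3 arrays a group, which does not show that they were unchanged. The direction was not shared, with 4 of the 9 differences above 0 and 5 below. The 3 surface regulators CD46, CD55 and CD59 were measured at log2 intensities far above the array medians in both groups at most of their probe sets. The clearest differences outside C3 that were not called were lower values of 1 of 2 CFB probe sets and higher values of 1 of 2 C1S probe sets.

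The promoter of CFB is shown because 1 of its probe sets separated the groups, and its window holds letters of an interferon response and a STAT site. That of C1R is shown because it is the neighbour of C1S on the reference and the window shown holds letters of a C/EBP site. It lies before C1R and is not the promoter of C1S, which had no entry, and C1R itself was not called. Both windows hold matches, so the display is not independent of them. CD55, whose groups did not overlap at 1555950_a_at and 201926_s_at, is not shown, and its window holds none of these letters. The sequences are the 250 bases before the gene start from RefSeq (GRCh38.p14), which gave entries for 6 of the 9 genes. C3, C1S and SERPING1 are named only. Each is written 5′ to 3′ on the strand of the gene. In CFB the capitals mark an interferon response match (GAAA, any 2 bases, GAAA, or its reverse complement) and then a STAT match (TTCNNNGAA), and in C1R a C/EBP match (TTGCNNAA or its reverse complement).
CFB, chr6:31945845-31946094, plus strand: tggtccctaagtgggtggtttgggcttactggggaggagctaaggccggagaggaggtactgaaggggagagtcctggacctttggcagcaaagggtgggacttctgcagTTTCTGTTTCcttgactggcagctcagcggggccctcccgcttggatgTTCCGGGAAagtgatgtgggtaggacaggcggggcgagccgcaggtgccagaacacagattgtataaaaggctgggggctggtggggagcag
C1R, chr12:7092446-7092695, minus strand: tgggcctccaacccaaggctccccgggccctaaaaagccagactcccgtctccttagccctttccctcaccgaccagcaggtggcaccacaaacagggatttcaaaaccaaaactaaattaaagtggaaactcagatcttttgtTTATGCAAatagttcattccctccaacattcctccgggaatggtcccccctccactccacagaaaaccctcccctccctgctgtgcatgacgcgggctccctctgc
The CFB matches TTTCTGTTTC and TTCCGGGAA start 140 and 92 bases before the gene start and do not overlap. Of 35116 promoter windows of this length, 3.02% held the interferon response letters, 6.57% the STAT letters and 9.05% the C/EBP letters on either strand. The C1R match TTATGCAA starts 106 bases before the gene start. C1R has 2 windows, and the one not shown also holds C/EBP letters (TTGCTGAA, starting 167 bases before its gene start) and STAT letters. C/EBP letters were found in each C1R window and in 1 of 4 windows of CD59. They were in no window of CFB, CFI, CD46 or CD55. STAT letters were also found in windows of CD59. The members had 11 windows in all, and the percentages above are per window. A match or its absence describes these letters in this window only.

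Whole-array measures set the frame for these values. Array medians were 4.46 to 4.56 (log2), and no detection calls were used here, so values at or under the medians have no stated background. The signal of the poly-A spike-in control probe sets was low on 1 array of each group, with a mean of 3.87 (log2) for C/EBPbeta-2 replicate 2 and of 4.05 for control replicate 1. The remaining 4 arrays had means of 7.14 to 8.06. The same 2 arrays had the largest differences between the ACTB 3' and 5' control probe sets, 1.32 and 1.48 (log2). On the remaining 4 these were -0.04 to 0.64, so the spike-in levels also differ in this measure. Differences are therefore also given within the low and the high spike-in level where they bear on a result. All 8 measured epithelial markers lay above every array median on all arrays, and 2 of them, CDH1 and KRT14, were called lower on the C/EBPbeta-2 arrays. CEBPB itself (212501_at) read 10.29, 10.50 and 11.38 on the arrays labelled C/EBPbeta-2 and 11.27, 11.38 and 11.37 on the control arrays, so this probe set did not show the label. The position of its probes in the mRNA was not examined, and every direction below rests on the labels.

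C3 (217767_at) read 7.41, 6.92 and 7.34 (log2 intensity) on C/EBPbeta-2 replicates 1 to 3 and 11.08, 11.0 and 10.60 on control replicates 1 to 3. All 3 C/EBPbeta-2 arrays lay below all 3 control arrays, at intensities of 122 to 170 against 1552 to 2160, and the 2 ranges left a wide gap. The means were 7.22 ± 0.26 and 10.89 ± 0.26 (SD, n = 3 each). The log2 difference was -3.67 (SE 0.21, 95% interval -4.17 to -3.16, limma adjusted p = 0.00325 over all genes). The 9 genes were chosen with earlier results of these data known, so the shares that follow give scale and are no test of the set. C3 was 1 of 9 genes called, where 0.263% of 19775 genes were called, 0.167% lower and 0.0961% higher. It had the fifth smallest p-value of all genes, and 18 genes (0.091%), C3 included, had a difference at least this far below 0; C3 was the only one of the 9 among them. In bulk RNA, fewer cells that express a gene and less RNA per cell cannot be told apart.

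C3 was lower with C/EBPbeta-2 at both spike-in levels, by a log2 difference of -4.15 at the low level (1 array against 1) and of -3.43 at the high level (2 against 2). With the 4 arrays of the high level alone the adjusted p was 0.0560, and over all probe sets the adjusted p was 0.0674 when C/EBPbeta-2 replicate 3 was left out. Leaving out 1 array gave -3.81 to -3.52 with adjusted p-values over genes of 0.0117 to 0.0355.

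**Figure D1:**
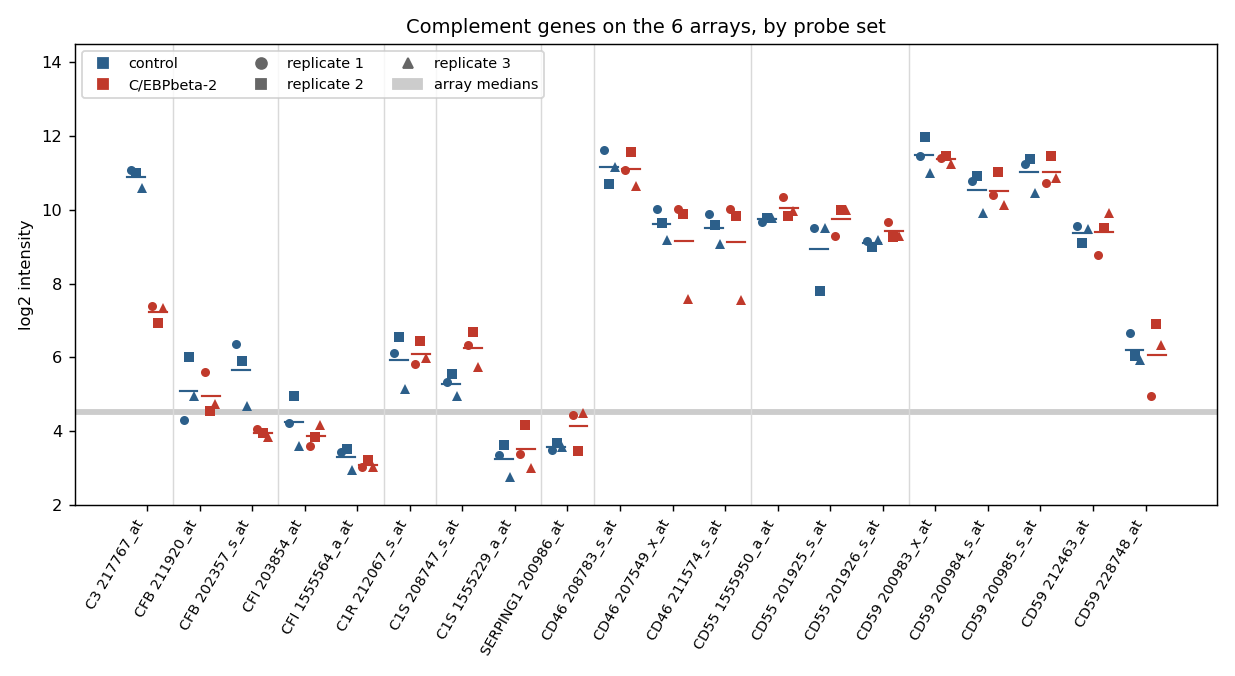
Log2 intensity (vertical axis) of the 20 probe sets of the 9 complement genes (horizontal axis), with control arrays in blue, C/EBPbeta-2 arrays in red, a marker shape per replicate, a line at each group mean and a grey band over the 6 array medians. C3 is at 10.60 to 11.08 in the control and at 6.92 to 7.41 with C/EBPbeta-2, while at most other probe sets the groups overlap.

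Cell type markers were read beside this result. The summed intensity of the 8 epithelial markers was 14040 to 19284 with C/EBPbeta-2 and 20970 to 28130 in the control. KRT14 was the brightest of them on the control arrays and weighs most in the control sums. It lay at 13.12 to 13.57 there and at 9.72 to 11.04 with C/EBPbeta-2 (difference -3.0). CDH1 differed by -2.14. Of the 8 differences 5 were below 0 and 3 above, with LAMB3 at 1.17, so the list did not fall as a whole. The 8 measured leukocyte markers summed to 257 to 298 with C/EBPbeta-2 and 215 to 254 in the control. Among them the common leukocyte antigen PTPRC lay at 3.11 to 3.63 on every array, under the medians. The monocyte receptor CD14 lay at 5.98 to 7.28, higher on every C/EBPbeta-2 array than on any control array (difference 0.92, limma adjusted p = 0.260). CD14 was the brightest leukocyte marker on every array and weighs most in these sums. Of the 8 leukocyte differences 3 were above 0 and 5 below, with a median of -0.04. The 8 hepatocyte markers summed to 207 to 480 with C/EBPbeta-2 and 180 to 332 in the control, with 6 of the 8 differences above 0. ALB lay at 2.88 to 3.98, under the medians, and SERPINA1 (4.79 to 8.33, difference 0.86) and TTR (5.55 to 6.26) lay above them. The 8 fibroblast markers summed to 349 to 567 with C/EBPbeta-2 and 726 to 3675 in the control. Without the matrix proteoglycan DCN (difference -2.61, adjusted p = 0.445) the fibroblast sums were 210 to 280 and 209 to 263. LUM lay at 2.61 to 2.92 on all arrays, and the collagen gene COL1A1 (6.58 to 6.91) and THY1 (5.26 to 6.20) lay above the medians. Of the 8 listed fibroblast differences 5 were above 0 and 3 below, with a median of 0.05. FAP, which is also known from fibroblasts and was not in the list, fell by 3.21 on the log2 scale. It is named only because its values lay nearest to those of C3, a choice that requires such a fall. The 6 endothelial markers summed to 116 to 134 and 128 to 165. Under the medians on all arrays lay 3 of the 8 leukocyte, 2 of the 8 hepatocyte, 2 of the 8 fibroblast and 2 of the 6 endothelial markers, and above them lay 3, 2, 3 and 1 in the same order. The part of these lists in the C3 result was not tested.

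Factor B, the protease that joins C3b in the alternative pathway convertase, was read by 2 probe sets that disagreed. At 202357_s_at the control arrays read 6.37, 5.90 and 4.69 and the C/EBPbeta-2 arrays 4.06, 3.95 and 3.83. The groups did not overlap, and all C/EBPbeta-2 values lay under the array medians, so the size of the difference is uncertain. It was -1.70 on the log2 scale (SE 0.41, 95% interval -2.70 to -0.71) and was not called (limma adjusted p = 0.532 over all probe sets). It was -2.41 at the low spike-in level and -1.35 at the high one. At 211920_at the control arrays read 4.30, 6.0 and 4.96 and the C/EBPbeta-2 arrays 5.6, 4.55 and 4.73. Here the groups overlapped fully, with a difference of -0.13 (SE 0.48, adjusted p = 1.00 over all genes), and control replicate 1, the highest array at the other probe set, was the lowest. The difference was 0.25 at the low spike-in level and -0.32 at the high one, so its sign turned. The gene was read at 211920_at because its mean over the arrays was higher.

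The proteases C1R and C1S sit next to each other on chromosome 12 of the reference and act together in the C1 complex. C1S (208747_s_at) read 6.34, 6.69 and 5.73 with C/EBPbeta-2 and 5.34, 5.55 and 4.96 in the control. Every C/EBPbeta-2 array was above every control array, by as little as the step from 5.55 to 5.73. The difference was 0.97 (SE 0.29, 95% interval 0.28 to 1.66) and was not called (adjusted p = 0.550 over all genes). The other C1S probe set, 1555229_a_at, lay under the array medians on all arrays (2.75 to 4.17) and differed by 0.28 (SE 0.36), with overlapping groups. C1R (212067_s_at) read 5.82, 6.44 and 5.98 with C/EBPbeta-2 and 6.12, 6.54 and 5.15 in the control. Its groups overlapped, and its difference of 0.14 had a 95% interval of -0.76 to 1.04. Whether C1S and C1R differed from each other in response was not tested.

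**Figure D2:**
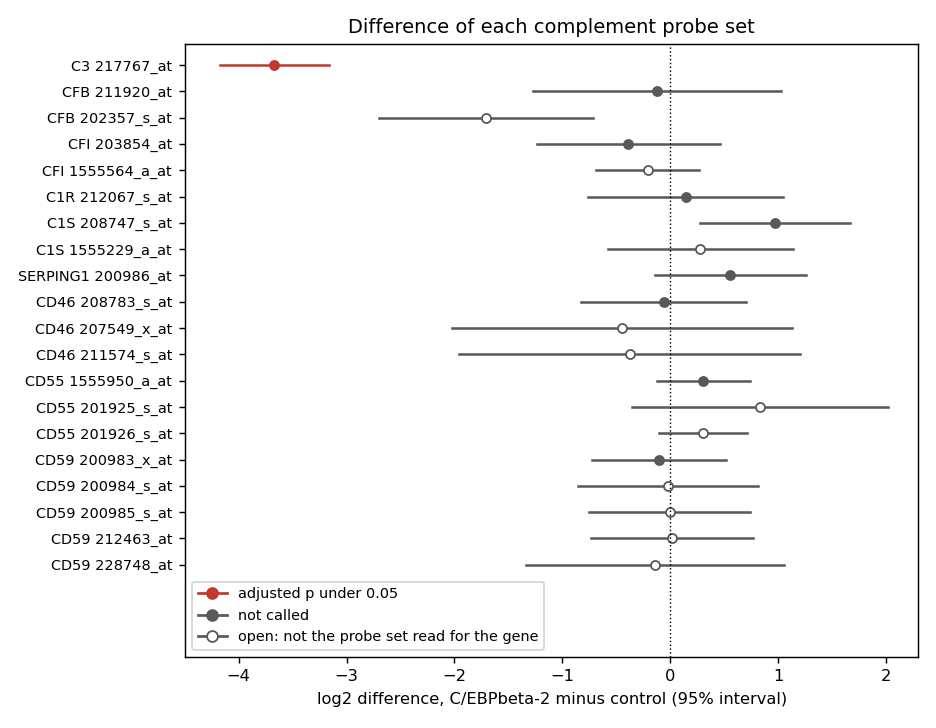
Log2 difference, C/EBPbeta-2 minus control (horizontal axis), with its 95% interval for each of the 20 probe sets (vertical axis); red marks an adjusted p under 0.05 over all probe sets and open circles the probe sets at which a gene was not read. The interval of C3 runs from -4.17 to -3.16, and those of 17 of the other 19 probe sets include 0.

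The 2 regulators that act in solution were near or under the array medians. SERPING1 (200986_at), the inhibitor of C1R and C1S, read 4.45, 3.47 and 4.48 with C/EBPbeta-2 and 3.48, 3.67 and 3.58 in the control. C/EBPbeta-2 replicates 1 and 3 lay above the control arrays and replicate 2, one of the 2 arrays of low spike-in level, lay just below them. The difference was 0.56 (SE 0.29, 95% interval -0.14 to 1.26, adjusted p = 1.00), with -0.0070 at the low spike-in level and 0.84 at the high one. CFI (203854_at), the protease that inactivates C3b, read 3.6, 3.84 and 4.16 with C/EBPbeta-2 and 4.22, 4.95 and 3.6 in the control, a difference of -0.39 (SE 0.36, adjusted p = 1.00) with overlapping groups. Leaving out control replicate 2 gave -0.040, and leaving out control replicate 3 gave -0.72. Its other probe set, 1555564_a_at, was at 2.94 to 3.51 on all arrays and differed by -0.21.

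CD46, the surface cofactor with which factor I cleaves C3b, was read by 3 probe sets. At 208783_s_at the values were 11.08, 11.58 and 10.65 with C/EBPbeta-2 and 11.62, 10.71 and 11.16 in the control, a difference of -0.06 (95% interval -0.83 to 0.70) with groups that overlapped. At 207549_x_at they were 10.03, 9.88 and 7.59 with C/EBPbeta-2 and 10.02, 9.65 and 9.18 in the control. The third, 211574_s_at, followed 207549_x_at closely, within 0.135 of it on every array, and read 7.55 on C/EBPbeta-2 replicate 3. This 1 array was thus low at both, and 208783_s_at exceeded 207549_x_at by 3.06 there against 1.05 to 1.98 on the other 5 arrays. The differences of these 2 probe sets were -0.45 (SE 0.66) and -0.38 (SE 0.66), and without C/EBPbeta-2 replicate 3 they were 0.34 and 0.42.

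**Figure D3:**
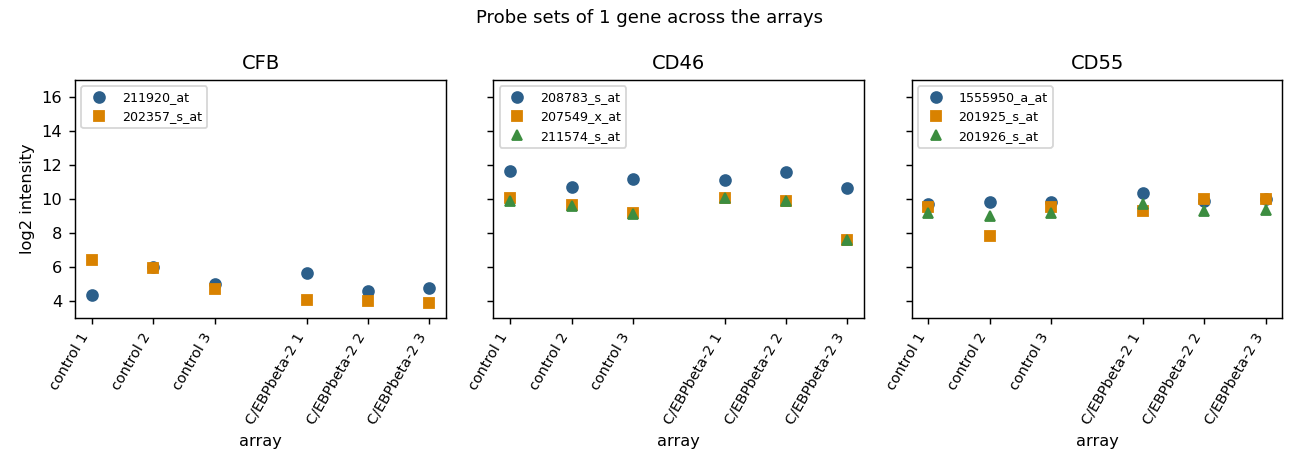
Log2 intensity (vertical axis) of each probe set of CFB, CD46 and CD55 on the 6 arrays (horizontal axis), with a colour and marker shape per probe set. Single arrays set probe sets of 1 gene apart: control replicate 1 for CFB, C/EBPbeta-2 replicate 3 for CD46 and control replicate 2 for CD55.

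CD55, which speeds the decay of the convertases, was slightly higher on the C/EBPbeta-2 arrays at all 3 of its probe sets, and none was called. At 1555950_a_at it read 10.35, 9.84 and 9.96 with C/EBPbeta-2 and 9.67, 9.79 and 9.78 in the control. At 201926_s_at it read 9.68, 9.28 and 9.30 with C/EBPbeta-2 and 9.17, 9.0 and 9.18 in the control. The groups did not overlap at either, with differences of 0.31 (SE 0.18, 95% interval -0.12 to 0.73) and 0.30 (SE 0.17, 95% interval -0.10 to 0.71). At 201925_s_at control replicate 2 read 7.80 against 9.5 and 9.51 on the other control arrays and 9.30 to 10.00 with C/EBPbeta-2. The difference there was 0.83 (SE 0.50), and 0.26 without control replicate 2.

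CD59, which blocks the membrane attack complex, was read by 5 probe sets, and the groups overlapped at each. At 200983_x_at it read 11.40, 11.46 and 11.25 with C/EBPbeta-2 and 11.46, 11.97 and 11.01 in the control, a difference of -0.11 (95% interval -0.73 to 0.51). The 5 differences ran from -0.14 to 0.02. The intervals of 4 of the probe sets stayed within -0.85 and 0.81, and that of 228748_at ran from -1.34 to 1.05. A difference as large as that of C3 lay outside all 5. The dimmest, 228748_at, varied most, with 4.96 on C/EBPbeta-2 replicate 1 against 5.92 to 6.90 on the other 5 arrays.

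Counted together, 1 of the 20 probe sets was called, where 0.0659% of all probe sets were and 0.0385% were called lower. The groups did not overlap at 5 of the 20, lower at C3 and 1 probe set of CFB and higher at 1 probe set of C1S and 2 of CD55, where 7.62% of all probe sets had groups that did not overlap, 3.75% lower and 3.87% higher. By gene they did not overlap for 3 of 9, against 8.63% of all genes. Probe sets of 1 gene share transcripts, so these counts are not of independent items. The genes were also chosen with earlier results of these data known. At an unadjusted p under 0.05 there were 2 of the 9 genes, C3 and C1S, against 5.4% of all genes. The median difference of the 9 genes was -0.06, beside 0.01 over all genes, and the median size was 0.31 beside 0.14.

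**Figure D4:**
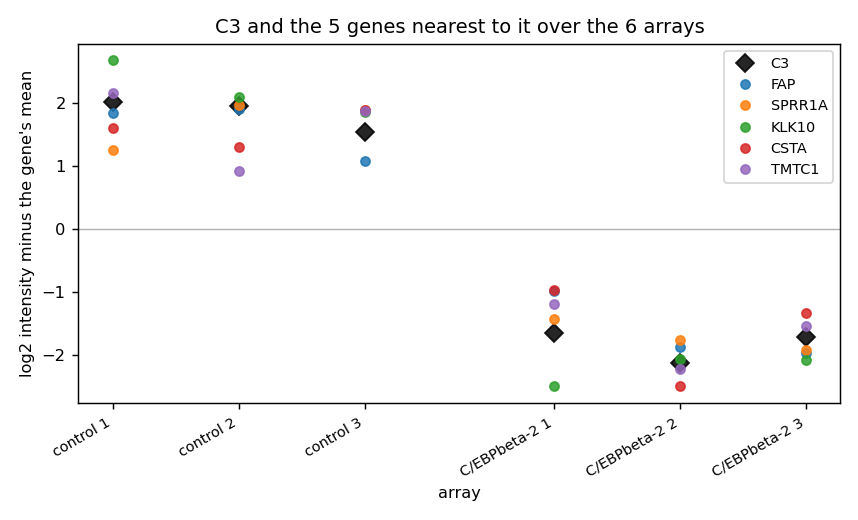
Log2 intensity minus the gene's own mean over the arrays (vertical axis) on each of the 6 arrays (horizontal axis) for C3 (black diamonds) and the 5 genes nearest to it (coloured circles). All 6 genes lie above 0 on the control arrays and below 0 on the C/EBPbeta-2 arrays, the pattern by which the 5 were chosen.

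The genes whose values followed C3 most closely over the 6 arrays were found by distance, the square root of the summed squared differences between 2 genes after each was centred on its own mean. The nearest was FAP, a surface serine protease, at 0.912, followed by SPRR1A, a precursor of the cornified envelope, at 0.963. KLK10, a kallikrein, lay at 1.18, CSTA, the cysteine protease inhibitor cystatin A, at 1.19, and TMTC1 at 1.2. Their differences were -3.21 for FAP, -3.42 for SPRR1A, -4.42 for KLK10, -3.20 for CSTA and -3.29 for TMTC1. All 5 were called, CSTA narrowly (adjusted p = 0.0496). The distance is set mostly by the step between the groups, so genes chosen by it share that step with C3, and their calls are no separate result. None of the other 8 complement genes was among the 5, which follows from their smaller differences.

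In the rest of the complement system, 0 of 40 measured genes (of 47 listed) were called by limma in either direction, with 3 at an unadjusted p under 0.05. Over all genes these shares were 0.263% and 5.4%. Their median difference was -0.01, and 29 of the 40 had both group means under every array median. The largest difference was that of CLU (208792_s_at), which encodes clusterin, an inhibitor of the terminal pathway. CLU read 9.08, 8.22 and 8.90 with C/EBPbeta-2 and 7.07, 6.6 and 7.0 in the control. The groups did not overlap, with a difference of 1.84 (SE 0.27, limma adjusted p = 0.0813). Only array weights among the alternatives gave a call (limma adjusted p = 0.0328), and the others gave 0.0655 to 0.343. With the mean of its 4 probe sets the CLU difference was 1.25. The integrin chain ITGB2, a part of complement receptors 3 and 4, read 5.64, 6.66 and 7.31 with C/EBPbeta-2 and 5.91, 4.72 and 5.07 in the control, so the groups overlapped (difference 1.31, adjusted p = 0.789). The terminal component C5 differed by -0.51 (adjusted p = 0.677) at values of 3.74 to 4.54, with both group means under every array median.

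The remaining roles held smaller differences. The 10 recognition molecules differed by -0.20 (C1QC) to 0.19 (FCN1), and 9 of them had both means under the array medians. The 5 measured genes of the group of other proteases differed by -0.30 (C1RL) to 0.06 (MASP1), with MASP2 at -0.14. Beside C5, the properdin and terminal components reached 0.25 (C7). Among the receptors ITGAM differed by 0.29, and among the fluid-phase regulators CFHR4 by -0.10.

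**Figure D5:**
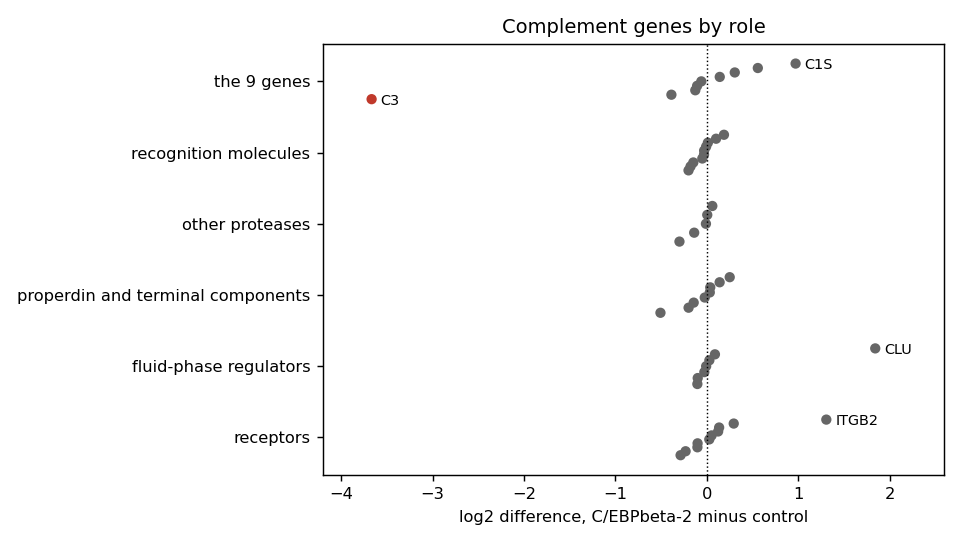
Log2 difference, C/EBPbeta-2 minus control (horizontal axis), of the 9 genes and of 40 other complement genes by role (vertical axis), 1 point per gene, red where called. C3 at -3.67 stands at the left, CLU at 1.84 and ITGB2 at 1.31 at the right, and neither of the latter was called.

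Cytokines, receptors and factors known to act on complement gene transcription were read for comparison. Of 18 measured genes (of 19 listed) 1 rose, IL1B, the cytokine interleukin-1 beta, by 5.01 (adjusted p = 0.000695), and 0 fell, where 0.0961% of all genes rose and 0.167% fell. IL1A differed by 0.71, IRF1 by 0.34 and CEBPB by -0.62, and the list had a median of 0.18. C3 is known as a gene that interleukin-1 induces, and here it was lower on the arrays where IL1B was higher. Whether these differences were linked was not tested, and the arrays read RNA, not secreted protein. IL6, TNF and IFNG lay under the array medians on all arrays, at 3.39 to 4.02, 3.99 to 4.40 and 3.04 to 3.59.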

How the data were processed

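Total RNA of 6 MCF10A samples was labelled with biotin after reverse transcription from an oligo-dT primer and read on Affymetrix arrays, per the labels' protocols. The deposited values are intensities on a linear scale (4.17 to 17825), and the submitters' processing notes name RMA with no version. No source used here gives the authors' route back to linear values. Values were taken to log2 with no pseudocount. Of 54675 probe sets, 62 control probe sets were set aside. limma 3.58.1 in R 4.3.3 (lmFit, eBayes) was fitted over 54613 probe sets as C/EBPbeta-2 minus control, two-sided. Each gene took the value of its brightest probe set (highest mean), and Benjamini-Hochberg adjustment ran over the 19775 genes or over the probe sets. Calls are at an adjusted p under 0.05. Intervals are 95% intervals of the fit. The small number of arrays limits the precision.

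Members and lists were chosen with earlier results of these data known. Named are all members, other complement genes and inducers that were called or had up to 2 of the largest differences in their role, and the 5 genes nearest to C3. IL6, TNF, IFNG and single markers such as DCN were named after their values were seen. List genes without a probe set that names them alone were not used here. Alternatives left out arrays, changed the scaling, filter, prior or weights, or added a technical term. Spike-in levels were split at 6 (log2). Python 3.11.15 with pandas 2.3.3, numpy 2.4.6 and matplotlib 3.10.9 handled tables and plots.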

Additional observations from a re-analysis of the deposited data

How the results depend on the processing

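The C3 difference kept its sign in all 18 alternatives (-4.15 to -3.43) and its call over genes in 15 of the 17 with a test. Over genes it was not called with the high spike-in arrays alone or with the replicate number as a block (adjusted p = 0.108). The replicate numbers did not pair the arrays: deviations of same-numbered arrays correlated at -0.45, -0.55 and 0.42, and 1 of 3 C/EBPbeta-2 arrays correlated best with its own number. C/EBPbeta-2 replicate 1 correlated best with control replicate 2 (0.64), and C/EBPbeta-2 replicate 2 with control replicate 1 (0.66). A pairing under other numbers is therefore not excluded, and no such block was fitted. The block by replicate number joined arrays that did not match best. With the replicate block 0 genes and 0 probe sets were called by limma (847 genes at an unadjusted p under 0.05, 2 of the 9 complement genes among them), so 0 complement genes, 0 of their probe sets and 0 inducers.

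The number of genes called was 7 to 57 without 1 array, 13 with the high spike-in arrays, 122 with array weights and 106 with the difference between the ACTB 3' and 5' probe sets as a covariate, against 52. The number of probe sets was 5 to 37 without 1 array, 6 with the high spike-in arrays, 78 without dim probe sets (mean log2 under 4.52), 67 with a trended and robust prior, 122 with array weights and 78 with the ACTB covariate, against 36. Of the complement genes and of their probe sets, 0 were called with the high spike-in arrays, and 0 to 1 of the probe sets without 1 array. Array weights called 1 other complement gene. The causes were not tested.

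No other member was called in any alternative, and signs turned only in differences that were not called. Without 1 array the differences ran from -0.25 to 0.44 for C1R, -0.045 to 0.53 for C1S 1555229_a_at, -0.30 to 0.17 for CD46, -0.88 to 0.34 for 207549_x_at and -0.82 to 0.42 for 211574_s_at. They ran from -0.34 to 0.14 for CD59, -0.33 to 0.17 for 200984_s_at, -0.29 to 0.17 for 200985_s_at, -0.24 to 0.33 for 212463_at, -0.56 to 0.41 for 228748_at, and -0.52 to 0.33 for CFB. Array weights turned CFB to 0.029, CFI to 0.00097, CD59 to 0.076, 200984_s_at to 0.11, 200985_s_at to 0.17 and 228748_at to 0.0089. Centring each array turned 200984_s_at to 0.0023 and 200985_s_at to 0.019, and the spike-in covariate turned them to 0.011 and 0.021. For 212463_at quantile normalization gave -0.0094 and the ACTB covariate -0.016, and without _x_at and _s_at probe sets CD59 was 0.016.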
